A study of Homo sapiens with 12 samples.

Results

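K562 cells given alpha-ketobutyrate (AKB) were compared with untreated K562 cells across the transcriptome. K562 is an established cell line from a chronic myelogenous leukaemia that carries the BCR-ABL1 fusion and makes embryonic and fetal globin. Every group was grown in RPMI-1640 with glutamine and 5% serum, and the treated group received 2 mM AKB for 24 h. The comparison used 8 of the 12 libraries in the series, 4 untreated and 4 with AKB, and the 4 libraries given pyruvate were not part of it. Members were chosen by the labels of these 8 libraries and a filter on low counts by group, which kept 13254 of the 17786 genes in the count table. Whether the 4 replicates of a group were grown as separate cultures is not stated in the labels, and p-values therefore reflect the spread among these libraries alone, which may be technical. All cells were of a single line, so the results describe that line alone.

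Alpha-ketobutyrate is a 2-oxo acid that cells form when cystathionine is split to cysteine and when threonine or methionine is broken down. Lactate dehydrogenase can reduce it to 2-hydroxybutyrate with NADH, so added AKB can take electrons from cytosolic NADH, and it can also be oxidised to propionyl-CoA. ATF4 is a transcription factor made when translation is slowed by kinases that sense amino acid shortage and other stresses. It raises genes for serine, asparagine and one-carbon synthesis, amino acid uptake and the charging of tRNA, many of them through a short sequence, the C/EBP-ATF response element, that ATF4 binds with a C/EBP partner. MondoA, a sensor of glucose phosphates, acts in the same way on TXNIP and ARRDC4, whose proteins limit glucose uptake.

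Total counts per library ran from 15353200 to 18420192, and the common biological coefficient of variation was 0.107. Levels are given as CPM, counts scaled to library size with TMM factors, and each mean is over 4 libraries. Erythroid markers of K562 were present in all 8 libraries: GATA1, the main erythroid transcription factor, ran from 122 to 170 CPM, and HBE1, the embryonic epsilon-globin, from 2082 to 3044 CPM. MTAP, a gene of the region that K562 is known to lack, was at 2.07 to 3.70 CPM, and HBB, the adult beta-globin, at 0.44 to 1.58 CPM on unscaled library sizes. No 2 libraries of a group had counts as alike as sampling noise alone would give (chi-square per degree of freedom 4.47 to 16.9). The first 3 principal components held 26.7%, 19% and 13% of the variance of log2 CPM. Untreated replicate 1 and AKB replicate 1 lay lowest of their groups on the first, and AKB replicate 1 stood apart on the second.

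With AKB, 709 genes were higher (5.35% of those tested) and 630 were lower (4.75%), 1339 in all (10.1%), with edgeR's quasi-likelihood test and a limit of 0.05 on the adjusted p. Most of these changes were small. The median size was 1.33-fold among genes that rose and 1.18-fold among genes that fell, and 210 genes rose by at least 1.5-fold (1.58%) against 35 that fell as far (0.264%). At 2-fold or more the counts were 57 and 7. The log2 fold change of the middle 90% of all tested genes lay between −0.31 and 0.53, with a median of 0.0024. The 4 libraries of one group lay wholly above those of the other for 2326 genes (17.5%), and 1255 of the 1339 called genes were among them.

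Rises and falls came from different parts of the expression range. The median untreated level was 19.5 CPM for genes that rose, 91.6 CPM for genes that fell and 28.2 CPM for all genes. In the lowest quintile of genes by mean CPM 89 rose and 6 fell, whereas in the highest quintile 99 rose and 284 fell. The median standard error of the log2 fold change fell from 0.284 in the lowest quintile to 0.0459 in the highest, so small changes could be called only in abundant transcripts. In summed CPM, genes that fell went from 9.93% to 8.48% of the library and genes that rose from 4.13% to 5.01%.

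**Figure D1:**
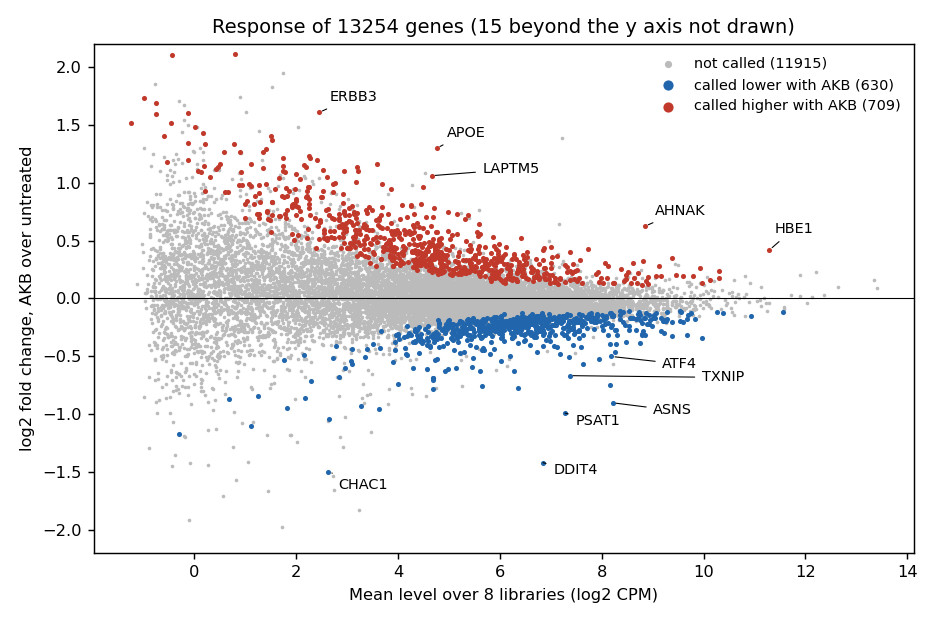
Log2 fold change with AKB over untreated (y axis) against the mean level over 8 libraries in log2 CPM (x axis), 1 point per gene, with 15 genes beyond the y axis not drawn. The 709 genes called higher (red) reach far into low levels, and the 630 called lower (blue) lie mostly at high levels and close to 0, with DDIT4 and CHAC1 labelled at −1.42 and −1.50.

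The number of calls rested on single libraries, and the balance of rises and falls moved with the scaling. Leaving out untreated replicate 1, 2 or 3 left 429, 329 or 353 genes higher and 330, 279 or 263 lower, and leaving out AKB replicate 2, 3 or 4 left 340, 465 or 385 higher and 304, 379 or 308 lower. Counts rose without untreated replicate 4, to 912 higher and 934 lower, and without AKB replicate 1, to 752 higher and 835 lower. The number of genes higher by at least 1.5-fold was 137 without untreated replicate 2, 132 without AKB replicate 2 and 268 without untreated replicate 4. Scaling by total counts alone gave 801 higher and 464 lower genes, so that 63.3% of calls were rises against 52.9% with TMM. List counts below are to be read beside the shares over all tested genes, 5.35% higher and 4.75% lower. Where a gene list below has 1 to 3 calls in a direction, its count ran from 0 to 5 over the fits without 1 library. No gene called in the fit of 8 libraries was called in the opposite direction under any alternative. Genes not called in that fit are outside this check.

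A fit of all 12 libraries, with the pyruvate group sharing the estimate of spread, called fewer genes on most of the lists below. The ATF4 list then had 21 lower members, the serine and folate list 5, amino acid transporters 5, cytosolic tRNA synthetases 6, ribosome biogenesis 3, DNA replication 2, nucleotide synthesis 1 and mitochondrial ribosomal proteins 0. Higher members then numbered 8 on the myeloid and leukocyte list, 4 each on the epithelial and glycolysis lists, 3 each on the lists of lysosome, fatty acid synthesis, NRF2 and hypoxia targets, and 0 each on those of cholesterol, interferon and the unfolded protein response.

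Called genes also differed in GC content. Transcripts of genes that rose had a median GC of 54.8%, those of genes that fell 43.7%, and all genes 48.0%. In the quintile of genes with the lowest GC 53 rose and 183 fell, and in the quintile with the highest 234 rose and 47 fell. The slope of a library's log2 CPM on GC, per 10 percentage points and relative to the mean of the 8 libraries, was −0.0938, −0.0404, −0.0609 and 0.0596 in untreated replicates 1 to 4 and −0.0423, 0.0679, 0.0734 and 0.0366 in AKB replicates 1 to 4. The groups overlapped and differed by 0.0677 (two-sided exact permutation test over 70 assignments, p = 0.171). With a GC offset for each library in the fit, 780 genes were higher and 1126 lower, 40.9% of calls were rises, and 600 of the 709 and 588 of the 630 genes were called again. The part of GC content in the calls was not tested.

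**Figure D2:**
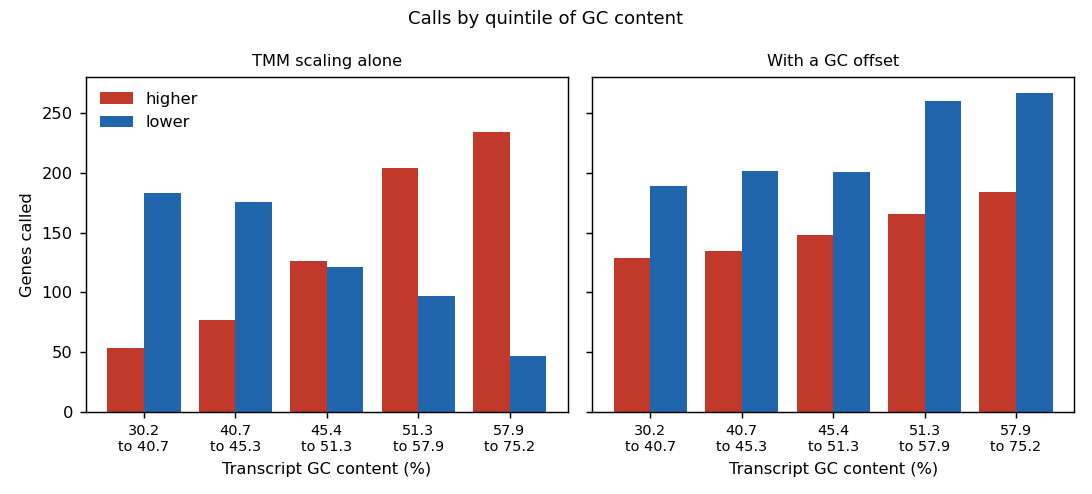
Number of genes called higher (red) and lower (blue) with AKB in each quintile of genes by transcript GC content (x axis, %), with TMM scaling alone (left) and with a GC offset per library (right). With TMM alone rises go from 53 to 234 and falls from 183 to 47 across the quintiles, and with the offset rises go from 129 to 184 and falls from 189 to 267.

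Transcripts of the amino acid response fell with AKB. Of 37 tested genes on a list of ATF4 and its amino acid response targets, 29 were lower, none was higher and 8 were not called, against 4.75% lower among all genes. The list's median log2 fold change was −0.50, and 34 of the 37 lay below 0. Its mean log2 CPM, relative to the untreated mean, was −0.0152 to 0.0182 in the untreated libraries and −0.532 to −0.454 in the AKB libraries. Between 25 and 29 members were called when any 1 library was left out, and 33 with the GC offset. Among the 15 genes with the largest falls, within the limits on named genes given in the methods, 10 were on this list.

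ATF4 itself, the transcription factor of the list, read 358, 333, 334 and 345 CPM in the untreated libraries and 242, 247, 239 and 240 CPM with AKB. No AKB library came near the untreated range, and the log2 fold change was −0.50 ± 0.035 (SE, edgeR adjusted p = 5.3e-05). ATF3, a stress-induced factor of the same family, went from 16.2, 17.2, 15.1 and 17.1 CPM to 8.48, 9.01, 8.27 and 8.10 CPM, a log2 fold change of −0.95 ± 0.086 (edgeR adjusted p = 0.00021). DDIT3, which encodes the stress factor CHOP, fell less, from 24.0 ± 0.80 to 18.9 ± 2.19 CPM (SD, n = 4; edgeR adjusted p = 0.033). Its call was lost without untreated replicate 1 (0.0864), 2 (0.0731) or 3 (0.0778) or AKB replicate 2 (0.0531) or 4 (0.0518), all edgeR adjusted p.

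The promoters below show where the C/EBP-ATF element, searched as TGATGNAA on both strands, lay before the start of genes that fell. Each line is 100 bases of the RefSeq promoter on GRCh38.p14, read 5′ to 3′ on the strand of the gene, with the match in capitals.
ASNS: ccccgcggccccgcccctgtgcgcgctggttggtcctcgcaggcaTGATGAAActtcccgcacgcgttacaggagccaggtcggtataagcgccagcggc
ATF3: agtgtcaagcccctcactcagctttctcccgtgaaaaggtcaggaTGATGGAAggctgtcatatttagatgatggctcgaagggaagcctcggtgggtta
CHAC1: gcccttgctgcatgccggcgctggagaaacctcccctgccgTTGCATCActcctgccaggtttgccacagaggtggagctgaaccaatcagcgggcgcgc
MTHFD1L: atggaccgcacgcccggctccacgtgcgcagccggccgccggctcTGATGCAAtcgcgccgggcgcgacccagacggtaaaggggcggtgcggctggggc
HERPUD1: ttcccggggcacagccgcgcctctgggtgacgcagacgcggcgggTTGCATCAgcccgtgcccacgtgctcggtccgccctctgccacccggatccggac
BCAT1: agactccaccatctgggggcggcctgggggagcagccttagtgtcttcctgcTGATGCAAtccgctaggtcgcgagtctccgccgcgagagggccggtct

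These stretches are chr7:97872422-97872521 (minus strand) for ASNS, chr1:212565171-212565270 (plus) for ATF3, chr15:40953221-40953320 (plus) for CHAC1, chr6:150866312-150866411 (plus) for MTHFD1L, chr16:56931921-56932020 (plus) for HERPUD1 and chr12:24949102-24949201 (minus) for BCAT1. In CHAC1 and HERPUD1 the match is on the other strand and reads TTGCATCA here. The first base of the match lay 68 bases before the start in ASNS, 191 in ATF3, 209 in CHAC1, 129 in MTHFD1L, 176 in HERPUD1 and 48 in BCAT1.

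Over windows from 250 bases before to 50 after the start, TGATGNAA was present in 166 of the 9781 promoters matched to tested genes (1.7%). It was present in 23 of 511 promoters of genes that fell (4.5%), 5 of 26 for falls of at least 1.5-fold (19.2%) and 2 of 527 for genes that rose (0.38%). On the ATF4 list 6 of 30 promoters held it (20%), and among cytosolic tRNA synthetases 6 of 16 did (37.5%). Outside the ATF4 list 17 of 487 promoters of genes that fell held it (3.49%). A longer form, TGATGNAAT, was counted first and was found in 44 promoters of all tested genes (0.45%), in 7 of genes that fell (1.37%) and in none of the ATF4 list, after which the shorter form was chosen. CCGGAAG, the core of sites for ETS factors and taken for comparison, was in 20.3% of all promoters, 25.2% of those of genes that fell and 10.1% of those of genes that rose. A match describes the letters in the window only.

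Among enzymes that make serine and carry its carbon into folate, falls were common. Of 20 tested genes, 10 were lower and none was higher, 6 of the 20 also being on the ATF4 list. PSAT1, the serine-pathway aminotransferase, read 214, 207, 211 and 197 CPM untreated and 108, 99.9, 106 and 102 CPM with AKB. The 2 ranges lay far apart, and the log2 fold change was −0.99 ± 0.042 (SE, edgeR adjusted p = 1.3e-06). PHGDH, the first enzyme of the pathway, went from 52.8 ± 1.72 to 35.0 ± 1.35 CPM (SD, n = 4), a log2 fold change of −0.59 (edgeR adjusted p = 0.00015). The mitochondrial folate enzymes MTHFD2, ALDH1L2 and MTHFD1L fell by 0.40, 0.63 and 0.42 on the log2 scale. Outside the ATF4 list, 4 of 14 members were lower and the median log2 fold change was −0.10.

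ASNS, which makes asparagine from aspartate, fell from 418, 386, 391.6 and 352 CPM to 211, 204, 206 and 206 CPM. The SD of the AKB libraries was 3.03 CPM, and the log2 fold change was −0.90 ± 0.049 (SE, edgeR adjusted p = 1.1e-05). Its pseudogene ASNSP1 moved from 5.81 to 3.20 CPM, and since the 2 are near-identical in sequence the division of reads between them is uncertain. CHAC1, which breaks down glutathione, had the largest fall among genes of at least 5 CPM, from 9.24, 9.88, 7.89 and 9.69 CPM to 2.01, 2.96, 3.46 and 4.51 CPM (log2 fold change −1.50 ± 0.21, edgeR adjusted p = 0.0023). CTH, the enzyme that splits cystathionine into cysteine and AKB, fell from 31.7 ± 1.99 to 19.5 ± 1.47 CPM (SD, n = 4; log2 fold change −0.70, edgeR adjusted p = 0.00049). On the list of the methionine cycle, transsulfuration and glutathione, 5 of 21 genes were lower and 1 was higher, and the lower ones included the uptake genes SLC7A11 and SLC3A2.

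Of the amino acid transporters of the plasma membrane 9 of 18 were lower and 1, SLC7A8, was higher, 7 of the 18 being on the ATF4 list. SLC7A5, the light chain of the large neutral amino acid exchanger, read 341, 365, 350 and 379 CPM untreated and 192, 226, 222 and 212 CPM with AKB (log2 fold change −0.75 ± 0.056, SE, edgeR adjusted p = 7.8e-05). SLC3A2, the heavy chain it shares with SLC7A11, fell from 238 ± 4.49 to 161 ± 5.86 CPM (SD, n = 4). SLC7A11, which imports cystine, fell from 104 ± 8.14 to 60.7 ± 3.78 CPM. The arginine carrier SLC7A1 and the alanine and serine carrier SLC1A4 fell by 0.51 and 0.54 on the log2 scale. The groups did not overlap for any of these 5 genes. Outside the ATF4 list, 3 of 11 members were lower and 1 was higher.

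Cytosolic aminoacyl-tRNA synthetases, the enzymes that load amino acids onto tRNA, were lower for 13 of 20 members and higher for none. The number of lower members was 8 without untreated replicate 3 and 13 with the GC offset. CARS1, for cysteine, went from 99.5, 94.4, 98.5 and 86.3 CPM to 59.1, 62.0, 63.2 and 60.7 CPM, the largest fall of the called members (log2 fold change −0.63 ± 0.051, SE, edgeR adjusted p = 0.00015). WARS1, MARS1 and YARS1, for tryptophan, methionine and tyrosine, fell by 0.52, 0.46 and 0.39 on the log2 scale. Outside the ATF4 list 9 of 16 members were lower, with a median log2 fold change of −0.19. Of 16 mitochondrial synthetases 3 were lower and none was higher.

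Of 3 secreted stress factors, INHBE and STC2 fell. INHBE, a subunit of activin E, read 7.97, 10.6, 8.11 and 6.97 CPM untreated and 4.47, 3.58, 4.98 and 3.28 CPM with AKB (log2 fold change −1.04 ± 0.18, SE, edgeR adjusted p = 0.0057). STC2, a stanniocalcin, fell from 19.96 ± 2.14 to 11.98 ± 0.57 CPM (SD, n = 4). GDF15, a cytokine of mitochondrial and integrated stress, was 27.6, 26.6, 25.8 and 30.4 CPM against 24.4, 25.6, 22.6 and 17.9 CPM and was not called (log2 fold change −0.29, 95% interval −0.52 to −0.05, edgeR adjusted p = 0.12). With the GC offset GDF15 was called lower (log2 fold change −0.41, adjusted p = 0.032).

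**Figure D3:**
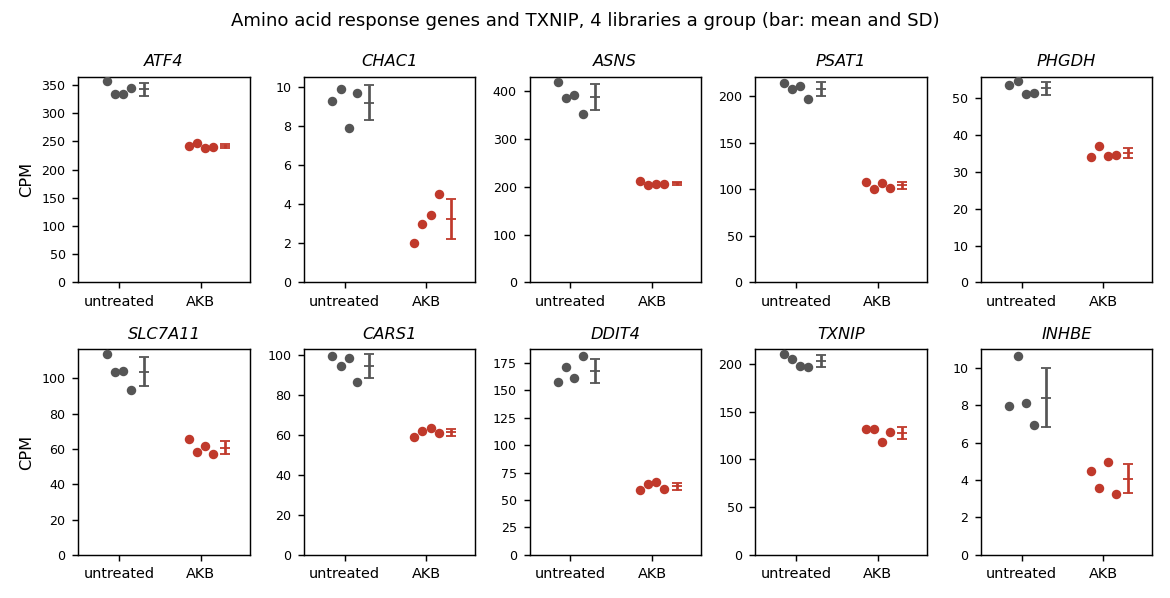
Level in CPM (y axes, each from 0) of 10 genes in 4 untreated (grey) and 4 AKB (red) libraries, 1 point per library, with the mean and SD as bars. In every panel all 4 AKB points are below all 4 untreated points, from ATF4 (342 to 242 CPM) to CHAC1 (9.18 to 3.24 CPM).

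DDIT4, an inhibitor of the growth kinase mTORC1 that is raised by ATF4, hypoxia and glucocorticoids, had the smallest adjusted p of the genes described. The gene lies on chromosome 10 from 72273920 to 72276036 on the plus strand (GENCODE 29, GRCh38). It read 157, 171, 161 and 181 CPM untreated and 59.5, 64.6, 66.0 and 60.2 CPM with AKB, a fall to 62.6 ± 3.20 from 168 ± 10.7 CPM (SD, n = 4; log2 fold change −1.42 ± 0.056, SE, edgeR adjusted p = 1.3e-06). The lowest untreated library was above the highest AKB library by a wide margin. SESN2, a leucine sensor that also restrains mTORC1, fell from 59.7 ± 1.57 to 43.7 ± 2.55 CPM (edgeR adjusted p = 0.00081). Of the other 26 tested mTORC1 regulators 2 were higher, CASTOR2 and SESN3, and none was lower.

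Both classical MondoA targets fell. TXNIP, a thioredoxin-binding arrestin, read 210, 205, 198 and 197 CPM untreated and 132, 132, 118 and 128 CPM with AKB (log2 fold change −0.67 ± 0.044, SE, edgeR adjusted p = 4.4e-05). ARRDC4, its paralogue, went from 31.8 ± 3.40 to 19.7 ± 2.62 CPM (SD, n = 4; edgeR adjusted p = 0.0041). The groups did not overlap for either gene. Among the 12 tested genes on the MondoA and ChREBP list these 2 were lower, MLXIPL, which encodes ChREBP, was higher and 9 were not called. The carbohydrate response element was searched on both strands in 1 exact form only, a pair of identical E-boxes with a spacer of fixed length. That form was in 1 of the 9781 promoters matched to tested genes and in none of the called genes. With so few matches in all promoters, the search cannot tell whether TXNIP or ARRDC4 holds the element. Looser forms were not searched.

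Other genes with large falls had varied roles. CD69, an early activation antigen of leukocytes, fell from 12.8 ± 2.14 to 6.70 ± 1.31 CPM (SD, n = 4; log2 fold change −0.93, edgeR adjusted p = 0.0069). SOX5, a transcription factor, fell from 32.7 ± 1.61 to 19.0 ± 0.72 CPM (log2 fold change −0.78, edgeR adjusted p = 0.00012). PMAIP1, which encodes the pro-apoptotic protein NOXA, fell from 31.6 ± 2.76 to 19.6 ± 1.65 CPM, and JUN, a subunit of AP-1, from 23.8 ± 4.01 to 15.6 ± 1.34 CPM. HERPUD1 and XBP1, of the response to misfolded protein in the endoplasmic reticulum, fell by 0.61 and 0.33 on the log2 scale. On that list of 26 genes they were the 2 lower members, and 5 were higher (CALR, HSP90B1, PDIA4, SDF2L1 and SEC24D). The 5 rises became 2, 1 or 1 without untreated replicate 1, 2 or 3, and 1 without AKB replicate 2 or 4.

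Falls among genes of ribosome assembly were small. On a list of 38 nucleolar and MYC-driven genes 12 were lower, none was higher and 35 lay below 0, with a median log2 fold change of −0.13. In the 4 AKB libraries the mean log2 CPM of the list was −0.159 to −0.122 relative to the untreated mean, against −0.0261 to 0.0216 in the untreated libraries. UTP20, of the small-subunit processome, fell from 168 ± 12.5 to 120 ± 6.35 CPM (SD, n = 4; log2 fold change −0.48, edgeR adjusted p = 0.0012). RRP12 and UTP4, which act in the same assembly, fell by 0.36 and 0.25 on the log2 scale. DDX21, a nucleolar helicase, read 1121, 1170, 1127 and 1068 CPM untreated and 918, 869, 870 and 889 CPM with AKB, one of the 5 largest falls in CPM. ODC1, the first enzyme of polyamine synthesis, fell from 659 ± 13.4 to 537 ± 19.9 CPM.

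NPM1, the abundant nucleolar protein, fell by 0.16 on the log2 scale (edgeR adjusted p = 0.025), and its call was lost without untreated replicate 2 (0.0739) or 3 (0.0756), without AKB replicate 2 (0.0774) or 4 (0.0642), and with the GC offset (0.0557). MYC itself was not called, at 239 ± 19.4 CPM untreated and 248 ± 18.9 CPM with AKB (log2 fold change 0.05, 95% interval −0.10 to 0.21). Cytosolic ribosomal proteins were called higher for 4 of 78 (5.13%, against 5.35% of all genes) and lower for none (against 4.75% of all genes). Those counts moved with single libraries, to 9 higher without untreated replicate 4, to 8 lower without AKB replicate 1, to 2 higher without untreated replicate 1 and to 0 higher without untreated replicate 2 or 3 or AKB replicate 2 or 4.

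Genes of the G1 to S transition and DNA replication were lower for 13 of 42 members and higher for none, with a median log2 fold change of −0.10. RRM2, a subunit of ribonucleotide reductase, fell from 366, 348, 348 and 328 CPM to 294, 275, 268 and 282 CPM (log2 fold change −0.31 ± 0.043, SE, edgeR adjusted p = 0.0022). The cyclin D kinase CDK4 fell from 248 ± 6.68 to 219 ± 3.55 CPM (SD, n = 4), and UNG, which removes uracil from DNA, from 71.1 ± 3.29 to 57.9 ± 3.25 CPM. The count of 13 became 4, 5 or 4 without untreated replicate 1, 2 or 3 and 4, 7 or 5 without AKB replicate 2, 3 or 4. Of 33 genes of G2 and mitosis 2 were higher and 2 lower, 12.1% called, near the 10.1% of all genes. The difference between the 2 lists was not tested.

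Purine and pyrimidine synthesis had 7 of 28 genes lower and 1 higher (HPRT1). GART, of purine synthesis, fell from 509 ± 16.4 to 436 ± 9.29 CPM (SD, n = 4; edgeR adjusted p = 0.0041), and the others that fell were CAD, NME1, PAICS, PFAS, RRM1 and RRM2. The 7 became 3, 3 or 4 without untreated replicate 1, 2 or 3 and 4, 3 or 3 without AKB replicate 2, 3 or 4. Of the mitochondrial ribosomal proteins 6 of 75 were lower, MRPL54 and MRPL1 by 0.39 and 0.28 on the log2 scale, and 54 of 75 lay below 0. Their count ran from 2 to 12 when 1 library was left out, being 12 without untreated replicate 4 or AKB replicate 1, 3 without AKB replicate 3, and 2 without any of the other 5.

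The mitochondrial chaperones HSPD1 and HSPA9 each fell by 0.18 on the log2 scale, 2 of 3 lower genes among 26 heat shock proteins and chaperonins. The share called was 11.5%, near the 10.1% of all genes. The count of lower genes was 5 without untreated replicate 4 or AKB replicate 1. The linker histone H1-2 fell from 741 ± 27.3 to 591 ± 42.3 CPM (SD, n = 4; edgeR adjusted p = 0.0042), and HMGN2, a nucleosome-binding protein, from 908 ± 36.4 to 727 ± 29.8 CPM. Histone transcripts without a poly(A) tail are not expected in poly(A)-selected libraries, so levels of replication-dependent histones cover only their tailed part.

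**Figure D4:**
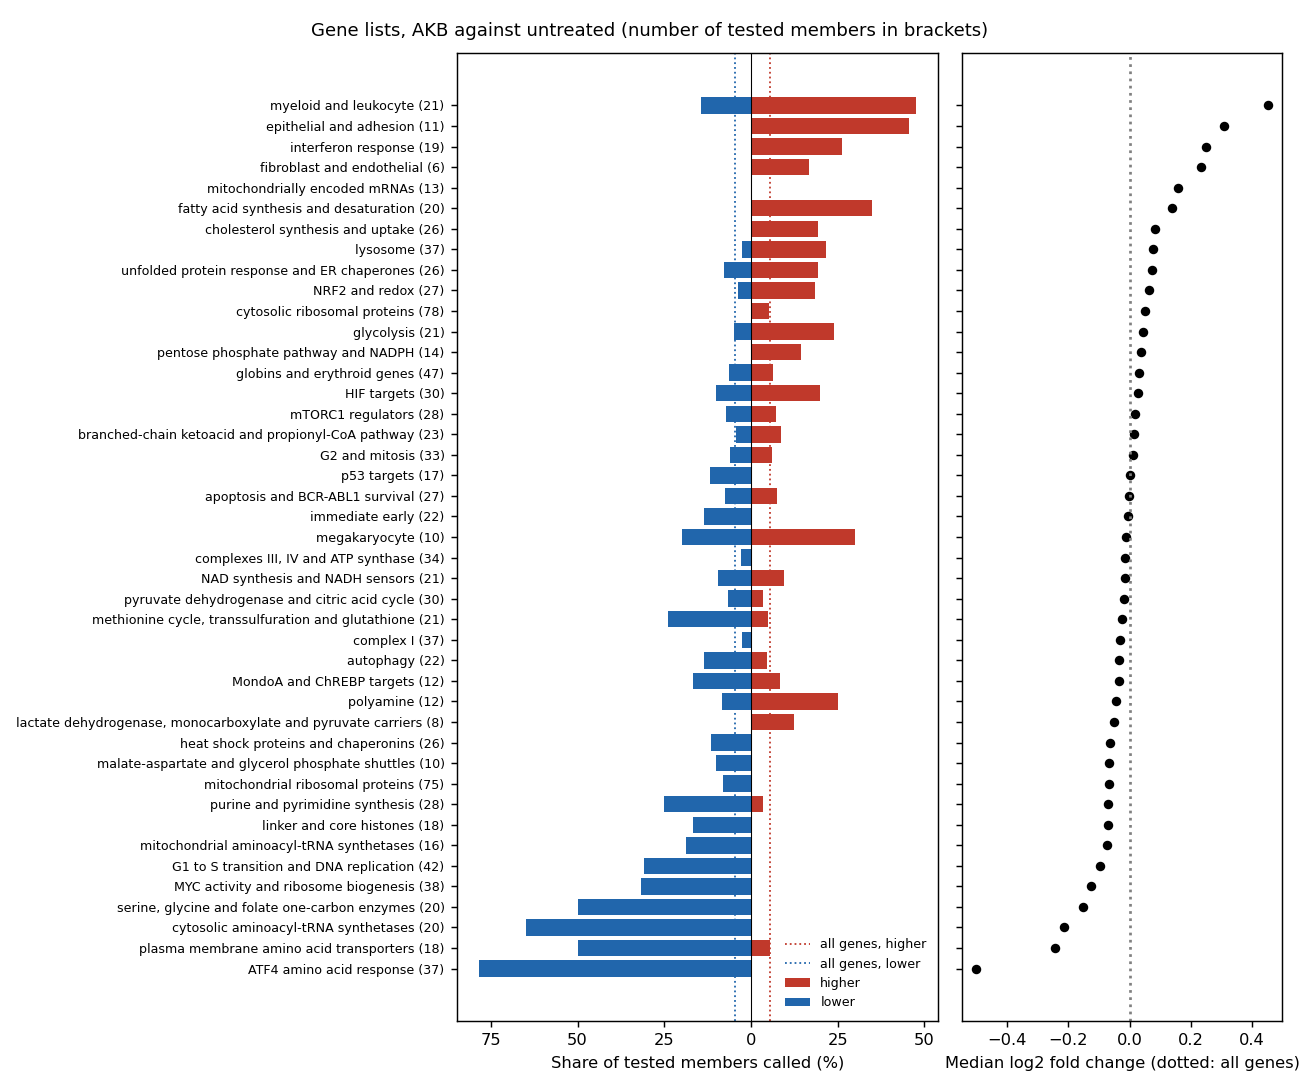
Gene lists with at least 5 tested members: share of members called higher (red, to the right) or lower (blue, to the left) with AKB in percent, with the shares over all genes dotted, and the list's median log2 fold change on the right. The ATF4 list is lowest with a median of −0.50 and 78.4% called, and the myeloid and leukocyte list is highest with 0.45 and 61.9%.

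The largest rises were in genes of low level. The 15 largest had a median untreated level of 3.65 CPM and the 15 largest falls 31.7 CPM. Genes entered these sets only if their larger group mean reached 5 CPM. For falls that limit acts on the untreated level, and for rises on the AKB level. The contrast of these medians is therefore partly built in, and cannot by itself show that rises began from lower levels than falls. ERBB3, a receptor of the EGF receptor family, read 2.21, 2.88, 2.61 and 3.09 CPM untreated and 6.09, 8.46, 8.85 and 9.52 CPM with AKB (log2 fold change 1.61 ± 0.17, SE, edgeR adjusted p = 0.00055). Its rise was the largest within the limits on named genes. Among all called genes 10 rose by at least 3-fold. APOE, the lipid carrier apolipoprotein E, lies on chromosome 19 from 44905754 to 44909393 on the plus strand (GENCODE 29, GRCh38). Its level went from 13.9, 17.3, 14.5 and 17.1 CPM to 36.1, 41.5, 40.6 and 36.1 CPM (log2 fold change 1.30 ± 0.089, SE, edgeR adjusted p = 5.1e-05). The lowest AKB library had more than the highest untreated library in both genes, which the choice of this set required.

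SYNGR1, a synaptic vesicle protein, rose from 7.38 ± 0.43 to 16.5 ± 0.59 CPM (SD, n = 4; edgeR adjusted p = 7.8e-05). EFNA1, a membrane ligand of Eph receptors, CNN1, a calponin of smooth muscle, and UBE2L6, the conjugating enzyme for ISG15, rose from 2.78 to 6.18, from 3.22 to 7.39 and from 3.98 to 8.25 CPM. The remaining genes of the 15 were CORO1A, GGT1, FCGR2C, CD24, SPINT1, SPI1, TRANK1, FBXO2 and LAPTM5, of which SPINT1, TRANK1 and FBXO2 rose by 1.11, 1.10 and 1.07 on the log2 scale. GGT1, a gamma-glutamyl transferase with near-identical copies, was 1.99, 1.47, 3.76 and 4.36 CPM untreated and 6.35, 7.22, 6.74 and 6.56 CPM with AKB (edgeR adjusted p = 0.025). The GGT1 call was lost without untreated replicate 1 (0.0677) or 2 (0.0504) or AKB replicate 2 (0.0735), 3 (0.0575) or 4 (0.0635).

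Myeloid and leukocyte genes had the highest median of the lists with at least 5 tested members. Of the 21 tested, 10 were higher and 3 lower, the median log2 fold change was 0.45, and 9 to 13 were higher when any 1 library was left out. LAPTM5, whose protein sits in the lysosomal membrane of blood cells, read 16.8, 17.7, 15.8 and 15.3 CPM untreated and 36.3, 35.4, 32.3 and 32.8 CPM with AKB (log2 fold change 1.06 ± 0.070, SE, edgeR adjusted p = 4.4e-05). SPI1, which encodes the myeloid transcription factor PU.1, went from 4.43, 6.63, 5.28 and 7.15 CPM to 10.9, 13.7, 13.7 and 11.9 CPM (log2 fold change 1.10 ± 0.16, SE, edgeR adjusted p = 0.0026). CORO1A, an actin regulator of leukocytes, rose from 2.84 ± 0.15 to 6.65 ± 0.45 CPM (SD, n = 4), and CD53, a tetraspanin, from 27.2 ± 2.26 to 39.9 ± 2.18 CPM.

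FCGR2A, an Fc receptor, rose from 40.4 ± 1.53 to 55.3 ± 3.53 CPM (SD, n = 4), and the closely similar FCGR2C from 2.85 ± 0.30 to 6.27 ± 0.90 CPM, with the reads between them of uncertain origin. The 3 lower members of the leukocyte list were CD69, IKZF1 and PTPRC, the last encoding the leukocyte antigen CD45. The 3 became 1 without untreated replicate 1, 2 or 3 or AKB replicate 2.

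Markers of other cell types were summed over each list as a check of what the libraries held. The 31 myeloid and leukocyte genes in the table summed to 772 to 797 CPM untreated and 861 to 924 CPM with AKB, the 15 epithelial genes to 589 to 624 and 631 to 688 CPM, the 10 fibroblast and endothelial genes to 40.8 to 43.5 and 45.7 to 50.1 CPM, and the 8 lymphocyte genes to 3.15 to 4.02 and 4.82 to 5.68 CPM. The 4 sums were higher in all 4 AKB libraries, and none of these markers was at 0 in all 8. Markers without a row in the table, which holds no gene totalling under 10 over the 12 libraries, were not analysed here. CD3E, of T cells, and CDH1, of epithelium, were at most 0.122 and 0.239 CPM in any library. On the epithelial and adhesion list 5 of 11 tested genes rose (CD24, EFNA1, ERBB3, KRT8 and SPINT1) and none fell. CD24 rose from 5.74 ± 1.01 to 12.6 ± 1.32 CPM (SD, n = 4). The part of these markers in the other results was not tested. In bulk libraries more cells of a type and more RNA per cell cannot be told apart.

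Lysosomal genes rose for 8 of 37 and fell for 1 (ATP6V1H), 24.3% called against 10.1% of all genes. LAPTM5, also on the myeloid and leukocyte list, was among the 8. CTSB, the protease cathepsin B, went from 53.2, 48.9, 51.8 and 57.0 CPM to 76.4, 71.5, 67.1 and 77.1 CPM (log2 fold change 0.47 ± 0.061, SE, edgeR adjusted p = 0.0016). PSAP, the precursor of the sphingolipid activator proteins, rose from 654 ± 18.3 to 751 ± 7.84 CPM (SD, n = 4), GRN, progranulin, from 46.8 ± 3.17 to 59.2 ± 4.31 CPM and CD63, a lysosomal tetraspanin, from 146 ± 3.49 to 171 ± 8.70 CPM. The 8 became 5 without untreated replicate 2.

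Genes of lipid synthesis were called in the upward direction. Of 20 genes of fatty acid synthesis and desaturation 7 rose and none fell, with a median log2 fold change of 0.14. With the GC offset 7 of them rose and 1 fell. ELOVL6, which elongates palmitate, read 186, 184, 181 and 173 CPM untreated and 240, 246, 236 and 250 CPM with AKB (log2 fold change 0.43 ± 0.037, SE, edgeR adjusted p = 0.00019). ACSS2, which makes acetyl-CoA from acetate, rose from 99.0 ± 1.87 to 132 ± 9.68 CPM (SD, n = 4), and FADS1, a desaturase, from 882 ± 38.8 to 1062 ± 71.6 CPM. The count of 7 became 3 without untreated replicate 2 or 3 or AKB replicate 2.

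FASN, the fatty acid synthase, rose by 0.23 on the log2 scale (edgeR adjusted p = 0.023), and its rise was 0.09 with the GC offset (adjusted p = 0.36). The FASN call was also lost without untreated replicate 1 (0.0627), 2 (0.0626) or 3 (0.074) or AKB replicate 2 (0.0696) or 4 (0.0689). Of 26 cholesterol genes 5 rose and none fell, 19.2% called against 10.1% of all genes. With the GC offset 6 cholesterol genes rose and 2 fell. HMGCS1 rose from 588 ± 44.4 to 750 ± 45.6 CPM (SD, n = 4; edgeR adjusted p = 0.0061) and LSS from 144 ± 7.25 to 174 ± 10.8 CPM. They encode enzymes early and late in sterol synthesis. The 5 became 3 without untreated replicate 2 or 3 or AKB replicate 2 or 4.

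Glycolytic genes rose for 5 of 21 (ALDOC, ENO2, ENO3, PFKFB4 and PKM) and fell for HK2, 28.6% called against 10.1% of all genes. ENO2, the neuronal enolase, read 15.0, 13.1, 14.2 and 13.4 CPM untreated and 24.7, 22.8, 24.2 and 26.1 CPM with AKB (log2 fold change 0.81 ± 0.074, SE, edgeR adjusted p = 0.00023). PFKFB4, which sets the level of fructose 2,6-bisphosphate, rose from 21.9 ± 0.61 to 32.6 ± 1.76 CPM (SD, n = 4), ALDOC, an aldolase, from 58.0 ± 2.54 to 73.7 ± 4.81 CPM and PKM, pyruvate kinase, from 502 ± 6.97 to 610 ± 25.7 CPM. Among 30 targets of the hypoxia-inducible factors 6 rose and 3 fell, the falls being DDIT4, HK2 and VEGFA. ALDOC, PFKFB4 and HK2 are on both lists, and DDIT4 is also on the ATF4 list. VEGFA, the endothelial growth factor, went from 115 ± 3.69 to 95.0 ± 4.798 CPM.

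**Figure D5:**
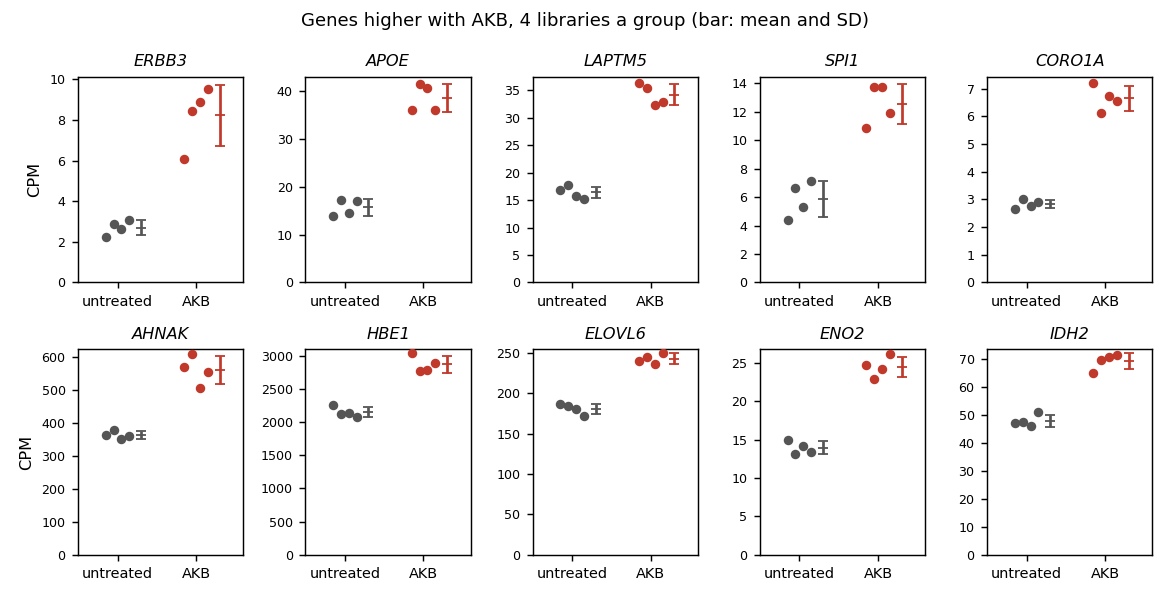
Level in CPM (y axes, each from 0) of 10 genes in 4 untreated (grey) and 4 AKB (red) libraries, 1 point per library, with the mean and SD as bars. In every panel all 4 AKB points are above all 4 untreated points, from ERBB3 (2.70 to 8.23 CPM) to HBE1 (2148 to 2872 CPM).

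Of 27 NRF2 and redox genes 5 rose and SLC7A11 fell, 22.2% called against 10.1% of all genes. The aldo-keto reductases AKR1C1, AKR1C2 and AKR1C3, which reduce steroids and carbonyls with NADPH, rose by 0.28, 0.56 and 0.56 on the log2 scale. AKR1C1 and AKR1C2 are nearly identical, so the division of reads between them is uncertain. IDH2, the mitochondrial NADP-dependent isocitrate dehydrogenase, read 47.0, 47.5, 45.9 and 51.1 CPM untreated and 65.2, 69.7, 70.9 and 71.4 CPM with AKB (log2 fold change 0.53 ± 0.050, SE, edgeR adjusted p = 0.00025). Interferon response genes rose for 5 of 19 and fell for none (26.3% called). IFITM3, a membrane restriction factor, rose from 19.0 ± 1.94 to 28.4 ± 4.36 CPM (SD, n = 4) and BST2, tetherin, from 88.4 ± 2.48 to 107 ± 2.18 CPM. The 5 became 3 without untreated replicate 2 or 3 or AKB replicate 2.

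AHNAK, a large scaffold protein, had one of the 5 largest rises in CPM, from 362, 379, 350 and 360 CPM to 570, 609, 506 and 553 CPM (log2 fold change 0.62 ± 0.054, SE, edgeR adjusted p = 0.00017). PIM1, a kinase downstream of BCR-ABL1 and STAT5, rose from 386 ± 8.10 to 448 ± 8.79 CPM (SD, n = 4), whereas STAT5A fell from 476 ± 5.43 to 410 ± 16.4 CPM. QPRT, of NAD synthesis from tryptophan, rose from 122 ± 6.58 to 158 ± 10.4 CPM, and SIRT1, an NAD-dependent deacetylase, fell from 82.2 ± 5.15 to 66.8 ± 3.46 CPM. SMOX, which oxidises spermine, rose from 1.79 ± 0.29 to 3.55 ± 0.65 CPM.

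Erythroid genes were called at a share of 12.8%, against 10.1% of all genes. Of 47 tested 3 rose (ALAD, HBE1 and SLC25A37), 3 fell (HBD, NFE2 and UROD) and 41 were not called, and the median log2 fold change was 0.03. HBE1 read 2249, 2126, 2137 and 2082 CPM untreated and 3044, 2764, 2786 and 2893 CPM with AKB (log2 fold change 0.42 ± 0.039, SE, edgeR adjusted p = 0.00025). Every AKB library was above every untreated library. ALAD, the second enzyme of haem synthesis, rose from 25.6 ± 0.72 to 31.9 ± 0.98 CPM (SD, n = 4), and HBD, the delta-globin, fell from 29.1 ± 0.79 to 23.6 ± 0.85 CPM. Without untreated replicate 1 or 3 or AKB replicate 2 or 3 the 3 falls became 1.

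The fetal globins were not called. HBG1 was 3136 ± 223 and 2980 ± 275 CPM (SD, n = 4; log2 fold change −0.07, 95% interval −0.22 to 0.08), and HBG2 5216 ± 286 and 5329 ± 377 CPM (0.03, −0.09 to 0.15). Their transcripts are nearly identical, and the annotated HBG2 locus spans HBE1, so the division of reads among the 3 is uncertain. GATA1 had a log2 fold change of −0.03 (95% interval −0.25 to 0.18). Of 10 megakaryocyte genes 3 rose and 2 fell. ITGA2B, the platelet integrin alpha-IIb, rose from 3.99 ± 0.51 to 7.33 ± 0.85 CPM, and RUNX1, a transcription factor of that lineage, fell from 109 ± 4.69 to 87.6 ± 2.04 CPM.

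The main genes that could take up or reduce AKB were not called. LDHA read 1017, 1012, 1011 and 949 CPM untreated and 1004, 918, 935 and 971 CPM with AKB, with overlapping groups (log2 fold change −0.06, 95% interval −0.15 to 0.03, edgeR adjusted p = 0.36). LDHB, the other main lactate dehydrogenase subunit, was 743 ± 28.8 and 745 ± 38.5 CPM (SD, n = 4; 0.00, −0.10 to 0.10), and SLC16A1, the monocarboxylate transporter 1, 355 ± 23.9 and 344 ± 25.3 CPM (−0.04, −0.18 to 0.09). On the list of 8 dehydrogenase and carrier genes, BSG, a partner of the transporters, was the 1 called gene, and its rise was lost without untreated replicate 1, 2 or 3, AKB replicate 2 or 4, or with the GC offset.

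On the branched-chain ketoacid and propionyl-CoA list, which holds the route by which AKB enters the citric acid cycle, 2 of 23 genes rose and 1 fell. ACADSB, a short branched-chain acyl-CoA dehydrogenase, read 19.97, 22.6, 22.9 and 20.96 CPM untreated and 29.8, 30.9, 29.03 and 29.1 CPM with AKB (log2 fold change 0.46 ± 0.064, SE, edgeR adjusted p = 0.0023). The other rise was ACSS2. BCAT1, the cytosolic branched-chain aminotransferase, fell from 526, 526, 529 and 457 CPM to 445, 396, 393 and 405 CPM (log2 fold change −0.32 ± 0.057, SE, edgeR adjusted p = 0.0081), with untreated replicate 4 close to AKB replicate 1.

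In the citric acid cycle IDH3A, of the NAD-dependent isocitrate dehydrogenase, fell from 122 ± 6.86 to 103 ± 3.06 CPM (SD, n = 4; edgeR adjusted p = 0.012), SDHD fell and IDH2 rose, out of 30. The 2 falls became 1 without untreated replicate 1, 2 or 3 or AKB replicate 2, 3 or 4, 4 without untreated replicate 4 and 5 without AKB replicate 1. Complex I had 1 of 37 genes lower (3 without untreated replicate 4 or AKB replicate 1), and complexes III, IV and ATP synthase 1 of 34 (4 without untreated replicate 4, 2 without AKB replicate 1 and 0 without any of the other 6).

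None of the 13 mitochondrially encoded mRNAs was called. Their median log2 fold change was 0.16, with 11 of 13 above 0. MT-CO2, a subunit of complex IV, read 3450, 4413, 3951 and 5616 CPM untreated and 3738, 5114, 6373 and 5216 CPM with AKB, so the groups overlapped widely (log2 fold change 0.23, 95% interval −0.14 to 0.60, edgeR adjusted p = 0.41). MT-ND5, a subunit of complex I, was 1675 ± 207 and 1916 ± 227 CPM (SD, n = 4; edgeR adjusted p = 0.24). Mitochondrially encoded genes took 3.13% to 4.72% of counts in the untreated libraries and 3.31% to 5.08% with AKB.

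The authors' deposited table for the same pair of groups gave 354 genes higher and 280 lower with AKB at an adjusted p below 0.05, of 12945 genes with an adjusted p. In the authors' deposited table the fold changes are untreated over AKB, so their signs were turned for this count. Of these genes, 292 and 230 were called in the same direction here and 0 in the opposite one. The shared genes were 82.3% of those called in the authors' deposited table and 39.0% of those called here.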

How the data were processed

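RNA was poly(A)-selected, fragmented and made into libraries, per the labels' protocols. The deposited values are estimated counts per gene made by the authors with Salmon 1.2.1, per the submitters' processing notes, which also name R 3.6.3 and DESeq2 1.26.0. Build, annotation and settings: not given in the sources used here. All values are whole, and no gene totals under 10 over the 12 libraries. Estimated counts divide reads among similar transcripts, so values of near-identical genes are uncertain. The authors also deposited tables of their comparisons, and per the file headers the one used gives for each gene a mean normalised signal, the log2 ratio of the groups and its error, a test score, and a raw and adjusted p-value. From it only the log2 sign and the adjusted p-value were read.

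The 8 libraries were fitted with edgeR 4.0.16 in R 4.3.3 (quasi-likelihood test, TMM, filterByExpr by group with a minimum count of 10, no covariate), and p-values were adjusted by Benjamini-Hochberg over all 13254 genes. Calls were made below 0.05. Every adjusted p, SE and 95% interval comes from this fit unless another is named. Symbols matched 16060 identifiers (90.3%), and GC content came from GENCODE 29 for 16904 (95.0%), since no other annotation is named. Promoters came from RefSeq. Genes were named by a rule on size, level, CPM difference and list membership that takes 190 genes, of which 112 are described with values, picked with their values known, and other genes are named only as list members. The 44 gene lists come from general knowledge, and the lists, the rule and the part of the study described were chosen with earlier results of these data known. Lists are described by counts and medians and carry no test. Some genes are on several lists, so counts of different lists are not independent.

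Alternatives were DESeq2 size factors in edgeR, total counts alone, no filter, a mean of at least 1 CPM, DESeq2 1.42.0, limma-voom 3.58.1, the replicate number as a block, all 12 libraries in 1 fit, a GC offset, and each library left out in turn.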

Additional observations from a re-analysis of the deposited data

Results flagged for a closer look

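In each group of 4 libraries, a gene was singled out when the gap between its highest or lowest library and the nearest of the others, over the group's range, passed Dixon's 95% critical value. The same check was made on total counts, the slope on GC, the mitochondrial share and the share of the most abundant genes. Among 232 checks of genes and these library measures, 9 were singled out, all of them genes, and chance gives about 1 in 20. In the untreated group, replicate 4 was low for BCAT1 (456.6 CPM against 525.6 to 529.3 in the others) and for LDHA (948.7 against 1011 to 1017 CPM). Untreated replicate 1 was low for BST2 (84.66 against 89.24 to 89.82 CPM) and high for DDIT3 (25.23 against 23.57 to 23.69 CPM). With AKB, replicate 1 was high for EFNA1 (8.096 against 5.442 to 5.688 CPM), for HBG1 (3391 against 2832 to 2857 CPM) and for XBP1 (93.14 against 88.19 to 88.77 CPM). AKB replicate 1 was low for MT-ND5 (1578 against 1988 to 2053 CPM). PHGDH was high in AKB replicate 2 (37.04 against 34.13 to 34.57 CPM). For the called genes among these, BCAT1, BST2, DDIT3, EFNA1, PHGDH and XBP1, the library that stood apart still lay on its own group's side of the other group.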

How the results depend on the processing

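With all 12 libraries in 1 fit, 186 genes were higher, 82 lower and 98 higher by at least 1.5-fold, and 186 and 81 of these were among the calls from 8 libraries; the cause was not tested. The GC offset gave 1126 lower genes, and the GC offset with the replicate block 1102; the cause was not tested. Leaving out 1 library gave 329 to 912 genes higher, 263 to 934 lower, 132 to 268 higher by at least 1.5-fold and 27 to 51 lower by at least 1.5-fold, with fewer samples. DESeq2 called 824 higher and 886 lower, limma-voom 733 and 628, DESeq2 size factors in edgeR 715 and 640, no filter 602 and 505 and a mean of at least 1 CPM 779 and 595. Without adjustment 1750 genes were higher and 1774 lower at p below 0.05. With the replicate number as a block 685 genes were higher and 627 lower, and 584 and 530 of these were called without it. Deviations of same-numbered libraries correlated at 0.187, −0.0526, −0.0716 and 0.0667, and those of differently numbered ones at −0.259 to 0.156. The 0.187, of replicate 1 in both groups, was the highest of any pair. Whether libraries of the same number shared a culture or batch was not tested. Of the 101 called genes given with values, 97 were called in every fit without 1 library, 99 with the GC offset, 101 with the block and 70 with all 12 libraries, and none changed sign. Genes not called in the fit of 8 libraries that were called in an alternative were GDF15 (GC offset, adjusted p = 0.032, and with the block, 0.020), MT-ND5 (block, 0.028, and with the GC offset, 0.029) and GATA1 (GC offset with block, 0.047). Counting noise limits genes of low level most, as the median standard error of 0.284 in the lowest quintile of genes shows.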

Other observations

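Calls were spread unevenly over kinds of gene. Of 709 tested pseudogenes 16 were higher and 6 lower, against 678 and 618 of 12040 protein-coding genes. Of 22 autophagy genes 1 was higher (OPTN) and 3 lower (ATG7, MAP1LC3B and NBR1). Of 17 p53 targets none was higher and 2 were lower, PMAIP1 and RRM2B. Of 22 immediate early genes 3 were lower, DUSP1, IER2 and JUN, and 1 was left without AKB replicate 2. The shares called on the autophagy, p53 and immediate early lists were 18.2%, 11.8% and 13.6%, against 10.1% of all genes.

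VARS1, the valine tRNA synthetase, lies outside the rule for named genes and was chosen after its values were seen. Its estimated counts gave 0, 45.7, 73.4 and 69.5 CPM in the untreated libraries and 0, 24.1, 78.8 and 29.8 CPM with AKB, so a gene that cells need for translation was listed at 0 in 1 library of each group. It was not called (edgeR adjusted p = 0.80). The cause was not tested.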
